A study of Homo sapiens and Homo sapiens
Mus with 12 samples.

Results

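The genes described are PPP1R3B and 8 other genes of glycogen metabolism (PPP1R3C, GYS1, GYG1, PGM1, UGP2, GBE1, PYGL and PYGB), in UM-UC-3 cells, a human advanced bladder cancer line. PPP1R3B was chosen by its measured level, which was higher in CDH11 KD than in shCtrl in both systems studied, so its levels against shCtrl are given as a description with no test. The other 8 genes were added as its partners in the pathway. All 9 were found by symbol among 21466 genes listed for cultured cells and 26813 human genes listed for xenograft tumors. In cultured cells 9 of 9 passed the low-count filter, and in tumors 8 of 9, with PPP1R3C below it.

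The study knocked down CDH11, the gene of the adhesion molecule cadherin 11, with 2 short hairpin RNAs, named sh#1 and sh#2. Each hairpin and the nonsilencing control (shCtrl) was delivered with GFP in a GIPZ lentiviral vector, and infected cells were collected as a GFP-sorted pool, so every group, shCtrl included, carries a vector and GFP. For cultured cells, RNA-seq was done after 24 h of preculture with 3 libraries per group, and for tumors with 5 per group, taken 4 weeks after subcutaneous transplantation into 5-week-old male BALB/cAJcl-nu/nu nude mice, which lack mature T cells. CDH11 KD means both hairpins together (n = 6 libraries or 10 tumors). All groups derive from 1 cell line, and nothing says whether the 3 libraries of a cultured group came from separate cultures, so p-values may measure technical spread only.

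Glycogen is the branched glucose store of animal cells. PGM1 converts glucose 6-phosphate to glucose 1-phosphate, UGP2 charges it to UDP-glucose, GYG1 (glycogenin) primes a chain, GYS1 (glycogen synthase) extends it and GBE1 sets the branches, while the phosphorylases PYGL and PYGB release glucose 1-phosphate again. PPP1R3B and PPP1R3C are targeting subunits that bring protein phosphatase 1 to glycogen, where dephosphorylation activates the synthase and inactivates the phosphorylase. PPP1R3B is best known from liver, and cancer cells are known to store glycogen when oxygen is low.

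To show the DNA next to the 4 tested genes with the largest fold in sh#2 in culture, the 250 bases upstream of the RefSeq start site are printed for PPP1R3C, GYS1, GBE1 and PYGL (GRCh38.p14, all on the minus strand, written 5′ to 3′ along the gene). They lie at chr10:91633072-91633321, chr19:48993310-48993559, chr3:81761646-81761895 and chr14:50944484-50944733, directly before the first exon. Capitals mark ACGTG or GCGTG on either strand, the core letters of the element through which hypoxia-inducible factors bind.
PPP1R3C: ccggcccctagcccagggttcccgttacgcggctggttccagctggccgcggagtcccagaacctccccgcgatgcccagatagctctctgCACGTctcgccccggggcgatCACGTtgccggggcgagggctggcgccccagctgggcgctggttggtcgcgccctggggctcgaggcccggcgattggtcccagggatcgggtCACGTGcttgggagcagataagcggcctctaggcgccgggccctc
GYS1: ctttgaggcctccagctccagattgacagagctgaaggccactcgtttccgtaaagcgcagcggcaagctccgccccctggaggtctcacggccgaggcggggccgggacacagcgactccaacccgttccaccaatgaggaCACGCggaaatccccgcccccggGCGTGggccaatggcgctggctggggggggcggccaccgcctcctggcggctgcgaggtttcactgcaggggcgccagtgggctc
GBE1: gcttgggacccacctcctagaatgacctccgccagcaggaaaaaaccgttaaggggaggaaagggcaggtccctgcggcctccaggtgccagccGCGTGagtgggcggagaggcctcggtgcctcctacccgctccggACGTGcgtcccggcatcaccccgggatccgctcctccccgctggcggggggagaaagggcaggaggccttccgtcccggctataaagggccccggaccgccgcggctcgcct
PYGL: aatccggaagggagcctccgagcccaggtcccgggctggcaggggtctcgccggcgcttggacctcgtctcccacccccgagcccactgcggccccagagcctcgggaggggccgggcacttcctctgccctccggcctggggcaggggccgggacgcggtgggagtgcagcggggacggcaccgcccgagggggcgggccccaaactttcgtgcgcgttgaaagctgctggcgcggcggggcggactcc

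The PPP1R3C window holds 4 matches, all of ACGTG, and 2 of them overlap in the palindrome CACGTG at 45 bases before the start site. GYS1 holds 2 matches and GBE1 2, while PYGL, whose RNA was also higher, holds 0. Among 35116 RefSeq windows of the same length, 43.2% hold at least 1 match, 19.4% hold 2 or more and 3.22% hold 4 or more. RefSeq windows were matched for 8 of the 9 genes at 11 start sites, of which 8 sites in 7 genes hold a match. PPP1R3B had no window, so its upstream sequence was not read. PYGB, which was lower in culture, also holds 2 matches, and GYG1 holds 3, of which 2 overlap in the palindrome CACGTG. A match of 5 letters is a description of the sequence and not of binding.

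The totals counted on genes were 2273182 to 2777019 per cultured library and 414849 to 1248977 per tumor for human genes. The target gene had few reads. CDH11 had 2 to 4 counts in shCtrl, 0 to 1 in sh#1 and 0 to 2 in sh#2 libraries, and 5 to 32, 1 to 9 and 2 to 14 counts in shCtrl, sh#1 and sh#2 tumors. Without the low-count filter, edgeR called CDH11 lower in CDH11 KD tumors (log2 -1.16, adjusted p = 0.00952). For sh#1 the log2 value was -1.69 (adjusted p = 0.00113). CDH11 was not called in sh#2 (log2 -0.77, adjusted p = 0.398) or for sh#1 against sh#2 (log2 -0.92, adjusted p = 0.614). The study reported less mRNA and protein of the gene in knockdown cells. In culture GYS1, GBE1, PYGL and PPP1R3C rose further in sh#2, and their relation to the depth of knockdown was not tested. Of 8 markers checked for the line, VIM, KRT8 and KRT18 were expressed in every library, EPCAM was at 0 in all 9 cultured libraries and UPK2 had at most 1 count, so epithelial and urothelial markers were partly absent. KRT7, CDH2 and GATA3 were on the list as well and are not given singly. The sum of the 8 was 2416 to 2609 CPM in shCtrl, 2603 to 2797 in sh#1 and 4232 to 4641 in sh#2 cultured libraries. The shCtrl tumors were all in 1 library mix, the sh#1 tumors in another and the sh#2 tumors in yet another, so mix and group cannot be told apart in tumors. Tumor 1 of sh#1 stood apart, with 414849 human counts and 30.02% of its human and mouse counts on mouse genes, against 10.4% to 18.8% in the other 14 tumors.

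In cultured cells, the phosphatase subunits stood highest relative to shCtrl. PPP1R3B had 10.2, 9.84 and 13.7 CPM (TMM-normalized counts relative to library size) in shCtrl, against 42.2, 45.6 and 53.9 in sh#1 and 44.8, 58.8 and 61.8 in sh#2. Every knockdown library lay above every shCtrl library. The mean was 11.3 ± 2.13 (SD, n = 3) in shCtrl and 51.2 ± 8.13 (n = 6) in CDH11 KD, a fold of 4.51 (log2 2.17, SE 0.18), which restates how the gene was chosen. The counts behind these values were 24 to 36 in shCtrl and 96 to 153 in CDH11 KD. The order of the levels was shCtrl, sh#1, sh#2, and the neighbours sh#1 and sh#2 were not shown to differ (log2 difference -0.21, 95% interval -0.49 to 0.06, q = 0.267). PPP1R3B lies on chromosome 8 from 9136255 to 9151574 (hg38, GENCODE, minus strand), and in part overlaps a lncRNA on the other strand. q denotes the Benjamini-Hochberg adjusted p over all genes of the edgeR fit, with a threshold of 0.05 in culture and 0.1 in tumors.

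PPP1R3C, also called PTG, rose further than any other of the 8 tested genes. It had 7.09, 9.84 and 10.3 CPM in shCtrl, 59.5, 60.0 and 65.2 in sh#1 and 106, 94.1 and 87.2 in sh#2. The 3 groups did not overlap. The mean of 9.07 ± 1.73 (SD, n = 3) in shCtrl compared with 78.6 ± 19.8 (n = 6) in CDH11 KD, 8.58-fold (log2 3.10, SE 0.25, q = 9.21e-07). By hairpin the rise was 6.76-fold for sh#1 (q = 3.73e-20) and 10.5-fold for sh#2 (q = 1.48e-25), and the hairpins differed (log2 -0.64, SE 0.11, q = 1.25e-05). The count of PPP1R3C per count of PPP1R3B was 0.814 ± 0.164 in shCtrl, 1.31 ± 0.0994 in sh#1 and 1.79 ± 0.505 in sh#2 (SD, n = 3). Because the ratio is not corrected for gene length, only its order across groups can be read.

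Of the 5 enzymes of synthesis, GYG1 rose in CDH11 KD, while GYS1, GBE1, PGM1 and UGP2 did not pass the threshold with both hairpins pooled. Glycogenin GYG1 had 33.5, 36.9 and 38.1 CPM in shCtrl and 39.7 to 52.1 in the 6 knockdown libraries, all above shCtrl (1.33-fold, log2 0.41, SE 0.12, q = 0.0308). Its call was lost when any of the 3 shCtrl libraries or library 2 of sh#2 was left out (q = 0.055 to 0.131). GYG1 overlaps exons of HLTF on the other strand (1190 counts of HLTF in all tumors and 1413 in culture), and the use of strand in counting is not given in the sources used here, so reads of both cannot be told apart.

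GYS1, the synthase itself, differed most between hairpins. It had 50.8, 56.6 and 51.8 CPM in shCtrl, 69.3, 68.7 and 63.1 in sh#1 and 224, 192 and 199 in sh#2. All 3 groups were separate, and sh#2 lay far above both others. The pooled value of 2.54-fold had a wide interval (log2 1.34, 95% interval 0.05 to 2.64, q = 0.143), and it passed with DESeq2 (log2 1.36, adjusted p = 0.0488). By hairpin GYS1 rose 1.26-fold in sh#1 (q = 0.0201) and 3.86-fold in sh#2 (q = 1.51e-24). The difference between the hairpins was -1.62 on the log2 scale (SE 0.09, q = 7.67e-21). The sh#1 call for GYS1 was lost with DESeq2 (adjusted p = 0.069) and without library 1 or 2 of sh#1 or library 1 or 3 of shCtrl (q = 0.0588 to 0.0701).

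GBE1, the branching enzyme, had 44.5, 41.8 and 48.8 CPM in shCtrl and 56.2, 44.8 and 66.6 in sh#1, which overlap, but 126, 113 and 131 in sh#2. It rose 2.73-fold in sh#2 (log2 1.45, SE 0.12, q = 9.75e-16), and its value in sh#1 was 1.25-fold (q = 0.0591). Without library 2 of sh#1 the q for sh#1 was 0.0103 and that for both hairpins together was 0.0367 in place of 0.122. PGM1, which sits where glycogen and glycolysis meet, rose 1.52-fold in sh#2 (112 to 128 CPM against 72.4 to 86.5 in shCtrl, q = 1.06e-06). In sh#1 PGM1 had 73.0 to 74.3 CPM, inside the shCtrl range (log2 -0.13, 95% interval -0.34 to 0.07, q = 0.38). UGP2 rose 1.35-fold in sh#2 (q = 0.0189) with 38.7 to 46.2 CPM against 29.9 to 34.2 in shCtrl, while in sh#1 its 24.8 to 40.5 CPM spanned the shCtrl range (log2 0.03, q = 0.911). The sh#2 call of UGP2 was lost with DESeq2 (adjusted p = 0.0833) and without library 1 of sh#2 or library 2 or 3 of shCtrl (q = 0.0627 to 0.0818). PGM1 overlaps exons of ITGB3BP on the other strand, where the same limit of strand applies.

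The phosphorylases moved in opposite directions. PYGL, the liver form, had 86.6, 95.5 and 98.3 CPM in shCtrl, 108, 106 and 130 in sh#1 and 242, 240 and 225 in sh#2. It rose 1.23-fold in sh#1 (log2 0.30, SE 0.09, q = 0.0117) and 2.52-fold in sh#2 (log2 1.33, SE 0.09, q = 1.53e-19), and with both hairpins pooled the q was 0.11. The sh#1 call of PYGL was lost without library 3 of sh#1 (q = 0.171) or library 1 of shCtrl (q = 0.0697).

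PYGB, the brain form, fell. It had 85.4, 82.4 and 90.7 CPM in shCtrl and 63.0 to 76.0 in the 6 knockdown libraries, none of which reached the lowest shCtrl library. The fitted level in CDH11 KD was 0.805 of that in shCtrl (log2 -0.31, SE 0.10, q = 0.0393), with nearly equal values for sh#1 (-0.31, q = 0.0251) and sh#2 (-0.32, q = 0.0128). The call for both hairpins pooled was lost with DESeq2 (adjusted p = 0.0611), without the low-count filter (q = 0.0773) and without any shCtrl library, library 1 or 3 of sh#1 or library 1 or 3 of sh#2 (q = 0.0552 to 0.171). The sh#1 call was lost with DESeq2 (adjusted p = 0.110) and without library 1 or 3 of sh#1 or library 3 of shCtrl (q = 0.0919 to 0.118). The sh#2 call was lost with DESeq2 (adjusted p = 0.0562) and without library 1 of sh#2 (q = 0.0864) or library 3 of shCtrl (q = 0.0640). The count of PYGL per count of PYGB was 1.01, 1.16 and 1.08 in shCtrl, 1.63, 1.40 and 1.92 in sh#1 and 3.84, 3.16 and 3.33 in sh#2, so the groups did not overlap in this ratio.

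**Figure D1:**
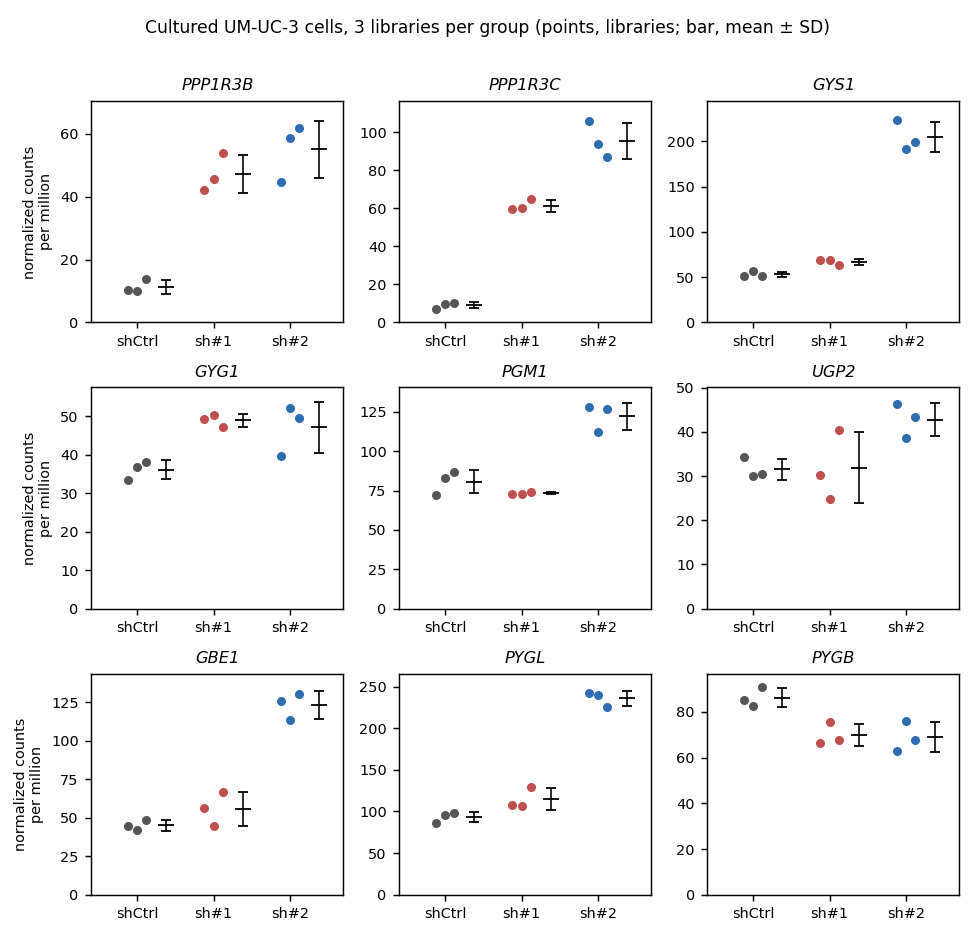
Normalized CPM (y axis, from 0, a scale of its own in each panel) of the 9 genes in shCtrl, sh#1 and sh#2 cultured cells (x axis). Points are libraries and the bar beside them is the mean ± SD (n = 3). For GYS1, GBE1, PGM1 and PYGL the sh#2 points lie above all others, while PPP1R3B and PPP1R3C are high for both hairpins and PYGB is low for both.

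Of the 8 tested genes, 2 rose (PPP1R3C and GYG1) and 1 fell (PYGB) in CDH11 KD, where 9.12% of all 9859 genes tested rose and 8.32% fell. For sh#1, 4 rose (PPP1R3C, GYS1, PYGL and GYG1) and 1 fell, against 11.8% and 10.6% of all genes. For sh#2, 7 rose and PYGB fell, against 19.5% and 18.8%, and 6 to 7 of the 8 sh#2 calls were made with a library left out. With DESeq2, 2 of the 5 sh#1 calls and 5 of the 8 sh#2 calls were made, and PYGB was among neither. In the fit with 3 groups, in which the spread is taken within each hairpin, the mean of both hairpins gave 7 calls of 8 in place of 3, with UGP2 the exception, and 3291 calls over all genes in place of 1719. The median log2 fold change of the 8 genes was 0.65 in CDH11 KD, 0.31 in sh#1 and 0.97 in sh#2, with medians of all genes tested at 0.00, -0.01 and -0.01. Apart from PPP1R3B, every CDH11 KD library was higher than every shCtrl library for 4 of 8 genes (PPP1R3C, GYS1, PYGL and GYG1) and lower for PYGB, which held for 11.4% and 10.6% of all genes.

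The hairpins themselves could be compared for all 9 genes, since the choice of PPP1R3B did not use this difference. Lower levels in sh#1 than in sh#2 were called for 6 genes (PPP1R3C, GYS1, GBE1, PYGL, PGM1 and UGP2) and higher levels for 0, where 24.7% of all genes were called in either direction. UGP2 was the weakest of them (log2 -0.40, 95% interval -0.71 to -0.10, q = 0.0432), and it was lost with DESeq2 (adjusted p = 0.148), with upper-quartile scaling (q = 0.0528) and without library 1 or 2 of sh#1 or library 1 or 3 of sh#2 (q = 0.0963 to 0.257). For PYGB and GYG1 the differences of 0.02 and 0.05 had intervals of -0.20 to 0.24 and -0.21 to 0.32.

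A list of 16 genes known to rise at low oxygen was also read in culture. It held VEGFA, ADM, CA9, CA12, BNIP3, ANKRD37, NDRG1, EGLN3, PDK1, P4HA1, KDM3A, ANGPTL4, HILPDA, LDHA, PFKFB4 and BHLHE40. Its 15 genes past the filter were summed. The sum was 4542 to 5094 CPM in shCtrl, 7524 to 7770 in sh#1 and 13617 to 13931 in sh#2. By group mean, PPP1R3B, PPP1R3C, GYS1, GBE1 and PYGL stood in the same order. PYGB fell with both hairpins, and mean PGM1 was lower in sh#1 (73.4 CPM) than in shCtrl (80.6). Mean UGP2 was nearly equal in sh#1 (31.9 CPM) and shCtrl (31.6), and GYG1 was higher in sh#1 (48.9) than in sh#2 (47.1). The list was chosen with earlier results of these data known, and the study reported hypoxia-related genes as higher in these cultured cells. Its counts are therefore a description and not independent support. Of the 15 genes, 10 rose and 0 fell in CDH11 KD, where 9.12% and 8.32% of all genes did. Their median log2 fold change was 1.36. In sh#1 12 rose (median 0.97) and in sh#2 15 rose (median 1.81), where 11.8% and 19.5% of all genes rose. The part of this response in the glycogen genes was not tested.

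**Figure D2:**
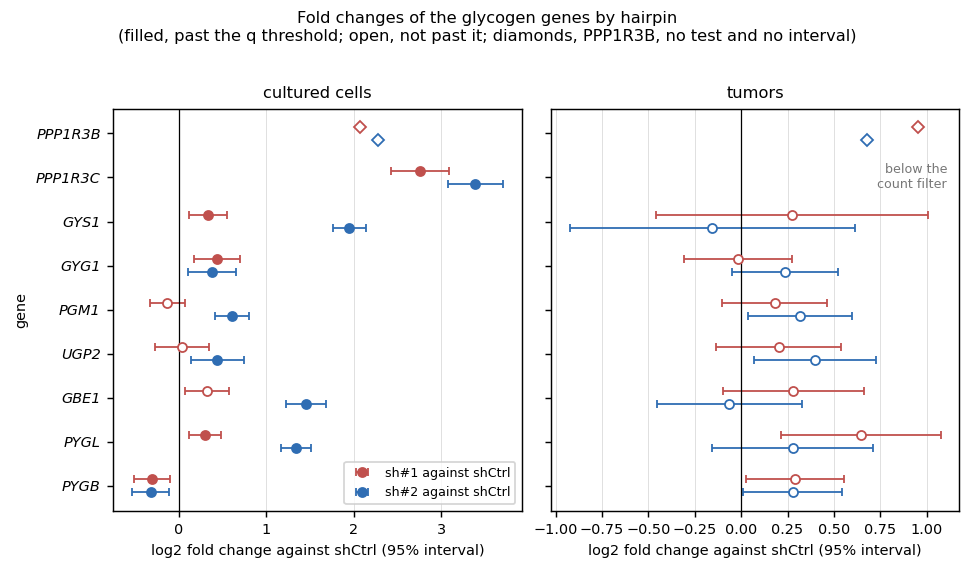
Log2 fold change of each gene against shCtrl (x axis, a scale of its own in each panel) for sh#1 and sh#2 in cultured cells and tumors, with 95% intervals from the fit with 3 groups. Filled points passed the q threshold, open ones did not, and the PPP1R3B diamonds carry no test. In culture the sh#2 points of GYS1, GBE1, PGM1 and PYGL lie to the right of sh#1, and in tumors no tested gene passed.

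The wider pathway was read from 34 other genes of glycogen and glucose phosphate handling, of which 24 passed the filter in culture. In CDH11 KD 6 of the 24 rose and 0 fell, where 9.12% and 8.32% of all genes did, with a median log2 fold change of 0.13. STBD1, which tethers glycogen to membranes, had 5 counts in each shCtrl library and 17 to 30 in the knockdown libraries (5.28-fold, log2 2.40, SE 0.32). HK1 rose 5.20-fold (3.37 in sh#1 and 7.18 in sh#2) and HK2 3.72-fold (3.44 in sh#1 and 4.00 in sh#2). Both phosphorylate glucose as it enters the cell. SLC2A1, the glucose transporter GLUT1, rose 2.61-fold (q = 0.0184), from 120 to 141 CPM in shCtrl to 227 to 244 in sh#1 and 437 to 465 in sh#2. The phosphoglucomutase relative PGM2 rose 1.77-fold (q = 0.0255) and the phosphatase catalytic subunit PPP1CC 1.23-fold (q = 0.0485).

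By hairpin, 5 of the 24 rose and GSK3B, the kinase that inhibits glycogen synthase, fell in sh#1 (log2 -0.39, q = 0.0259), whereas 8 rose and G6PC3, a glucose 6-phosphatase, fell in sh#2 (log2 -0.32, q = 0.0488). Of all genes 11.8% rose and 10.6% fell in sh#1, and 19.5% and 18.8% in sh#2. PPP1R3E, another targeting subunit, rose 1.69-fold in sh#2 (q = 0.0203) and was at 1.08-fold in sh#1 (q = 0.828). Among the listed genes of most counts, the phosphatase catalytic subunit PPP1CB rose 1.38-fold in sh#2 (q = 5.85e-05) and was at 0.991 of shCtrl in sh#1, while PPP1CA, the phosphorylase kinase subunit PHKB and UGDH, which uses UDP-glucose, did not pass for either hairpin. The other phosphorylase kinase subunits PHKA1, PHKA2 and PHKG2 and the lysosomal glucosidase GAA did not pass either. PHKA1 was near the threshold in sh#1 (1.52-fold, q = 0.0534) and was called as higher in sh#1 than in sh#2 (log2 0.90, q = 0.00546). Between hairpins, 1 of the 24 was called higher in sh#1 and 6 lower, where 24.7% of all genes were called in either direction. PPP1R3E, GAA and the kinase subunits other than PHKB were picked for mention after their values were seen, as were the genes near 0 below. Muscle and liver relatives and the listed gene NHLRC1 were at or near 0. PPP1R3A, GYG2 and NHLRC1 had 0 counts in all 9 libraries, which allows up to 0.14 CPM (3 counts over all libraries, counting error only), and GYS2 and PYGM had 1 count each.

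**Figure D3:**
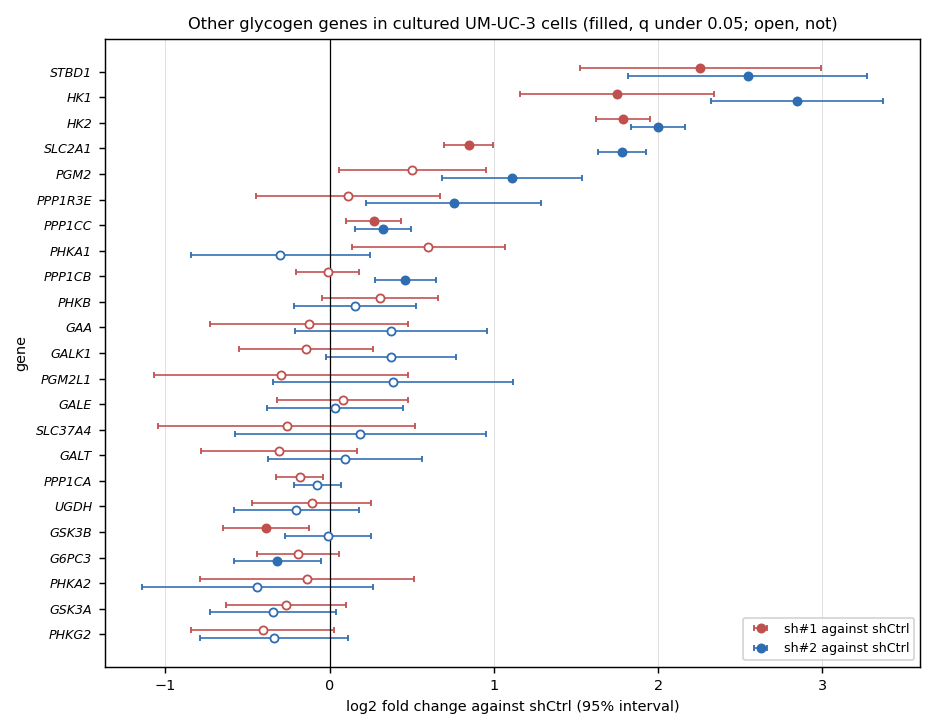
Log2 fold change against shCtrl (x axis, 95% interval) of 23 of the 24 other glycogen genes tested in cultured cells, for sh#1 in red and sh#2 in blue, ordered by the value in CDH11 KD. Filled points have q under 0.05. STBD1, HK1, HK2 and SLC2A1 lie to the right for both hairpins and most other genes lie near 0.

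In tumors, PPP1R3B was again higher with either hairpin, and none of the 7 tested partners passed the threshold. PPP1R3B had 31.3, 36.8, 55.9, 29.3 and 30.6 CPM in shCtrl tumors, 103, 81.4, 62.6, 60.9 and 60.6 in sh#1 and 52.6, 56.4, 65.1, 45.9 and 76.4 in sh#2. Every sh#1 tumor lay above every shCtrl tumor, but 2 of the 5 sh#2 tumors (45.9 and 52.6) lay below shCtrl tumor 3. The means were 36.8 ± 11.04 in shCtrl, 73.6 ± 18.4 in sh#1 and 59.3 ± 11.8 in sh#2 (SD, n = 5), and the log2 fold change in CDH11 KD was 0.82 (SE 0.17, 1.77-fold). It was 0.76 without sh#1 tumor 1 and 1.02 without shCtrl tumor 3. The hairpins were not shown to differ (sh#1 minus sh#2, log2 0.28, 95% interval -0.10 to 0.65, q = 0.654). In tissue, fewer tumor cells of a kind and less RNA per cell cannot be told apart.

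PPP1R3C was sparse in tumors. Its counts were 2, 0, 4, 5 and 0 in shCtrl, 12, 12, 5, 8 and 6 in sh#1 and 2, 7, 6, 4 and 2 in sh#2. Its CPM was 0 to 4.56 in shCtrl, 5.30 to 33.3 in sh#1 and 2.84 to 9.40 in sh#2 tumors, so shCtrl and sh#2 overlapped. In the fit without the low-count filter it was 3.38-fold higher in CDH11 KD (log2 1.76, SE 0.46, q = 0.0274) and 4.6-fold higher in sh#1 (q = 0.00292), and its value in sh#2 was 2.2-fold (q = 0.553). The count of PPP1R3C per count of PPP1R3B was 0.0569 in shCtrl, 0.164 in sh#1 and 0.0904 in sh#2 tumors, against 0.814 in shCtrl culture. The study sequenced cultured and tumor libraries on different instruments and aligned them with different programs. This contrast between culture and tumors has no test.

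PYGL had 208 to 327 CPM in shCtrl tumors (median 262), 315 to 735 in sh#1 (median 336) and 285 to 350 in sh#2 (median 318). The highest value, 735, belonged to sh#1 tumor 1, and the other 4 sh#1 tumors had 315 to 376. The fold was 1.39 in CDH11 KD (log2 0.47, SE 0.19, unadjusted p = 0.0266 in the edgeR fit, q = 0.324), and the log2 value was 0.32 (q = 0.184) without sh#1 tumor 1. Without the low-count filter PYGL passed (log2 0.43, q = 0.0287), and with DESeq2 it passed for sh#1 alone (adjusted p = 0.0574).

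PYGB, lower in cultured knockdown cells, had 101 to 150 CPM in the 10 CDH11 KD tumors and 93.5 to 107 in shCtrl tumors. The ranges overlapped around a shCtrl mean of 99.3, and PYGB was not called (log2 0.29, SE 0.11, q = 0.278). In culture all 6 knockdown libraries lay below every shCtrl library, which held for 10.6% of all genes. The difference between systems was not tested, since the tables were normalized separately.

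PGM1 had 58.2 to 74.1 CPM in shCtrl and 63.6 to 91.0 in CDH11 KD tumors (log2 0.25, q = 0.378), and UGP2 35.7 to 52.1 and 38.4 to 63.2 (log2 0.30, q = 0.362). GYS1 overlapped fully, with 14.4 to 43.3 CPM in shCtrl, 20.2 to 72.1 in sh#1 and 17.2 to 40.1 in sh#2 (log2 0.08 in CDH11 KD, 95% interval -0.57 to 0.72). The corresponding log2 values were 0.12 for GBE1 (95% interval -0.23 to 0.47) and 0.11 for GYG1 (-0.14 to 0.37).

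**Figure D4:**
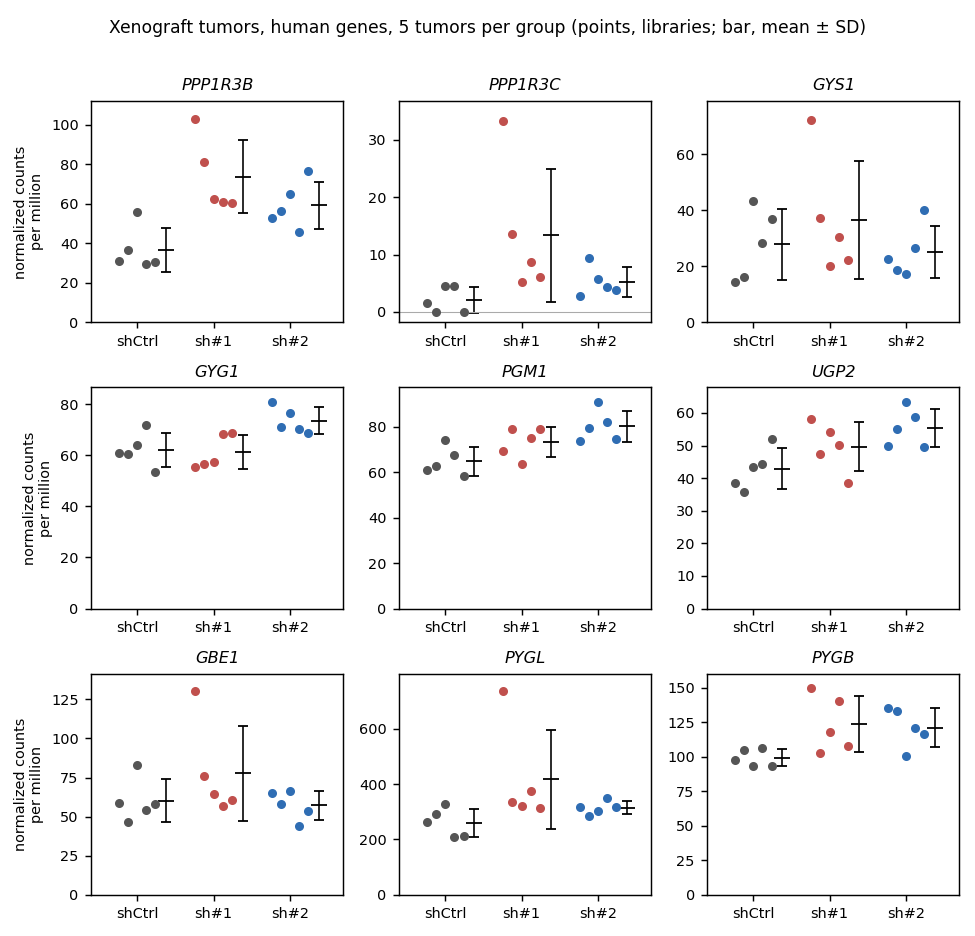
Normalized CPM (y axis, a scale of its own in each panel) of the 9 human genes in shCtrl, sh#1 and sh#2 tumors (x axis). Points are tumors and the bar is the mean ± SD (n = 5). PPP1R3B is above most shCtrl tumors for both hairpins, and 1 sh#1 tumor is highest for PPP1R3B, PPP1R3C, GYS1, GBE1, PYGL and PYGB.

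Of the 7 tested genes 0 passed by the quasi-likelihood test of edgeR in CDH11 KD, sh#1, sh#2 or sh#1 against sh#2, where 1.51%, 1.48%, 2.68% and 1.19% of all 9184 genes did. For sh#1 against sh#2 PPP1R3B was tested as well and did not pass. At an unadjusted p under 0.05 there were 4, 2, 3 and 0 genes, where 1164, 1029, 1259 and 913 of all 9184 genes had such a p, and DESeq2 called 0, 1, 0 and 0 of these genes past the threshold. For 0 of 8 genes did all CDH11 KD tumors lie on 1 side of all shCtrl tumors, which held for 0.577% of all genes. The 7 log2 values in CDH11 KD were above 0, from 0.08 to 0.47 with a median of 0.25, where 4697 of all 9184 genes were above 0. With the mouse-to-human ratio in the fit GYS1 was at -0.13 and GBE1 at -0.057, and GYS1 was also below 0 without sh#1 tumor 1 (-0.07) or shCtrl tumor 1 or 2 (-0.12 and -0.06). In sh#1 6 of the 7 values were above 0, and in sh#2 5. Of the other glycogen genes 19 were tested and 0 passed in any of these comparisons. HK2 (log2 0.40, q = 0.733) and SLC2A1 (log2 0.38, q = 0.698) were not called in CDH11 KD tumors, with 95% intervals that reach below 0. STBD1 was not among the tumor genes analysed here.

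The list of genes known to rise at low oxygen varied from tumor to tumor. Its sum over 13 genes was 1235 to 1401 CPM in 4 shCtrl tumors and 2727 in shCtrl tumor 3. That tumor had the highest PPP1R3B, GYS1, GBE1, PYGL and PGM1 in its group, but not the highest PYGB, UGP2 or GYG1. There PYGB was 93.5 CPM (up to 106.7 in the group), UGP2 43.3 (up to 52.1) and GYG1 63.8 (up to 72.0). In sh#1 the sum was 3910 in tumor 1 and 2530 in tumor 2, the tumors with the highest PPP1R3B, and 1628 to 1741 in the other 3. In sh#2 it was 1336 to 1814, highest in tumor 2 (PPP1R3B 56.4 CPM), whereas PPP1R3B was highest in tumor 5 (76.4 CPM). As in culture, its counts are a description, since the list was chosen with earlier results known. Of its 13 genes 1 rose and 0 fell in CDH11 KD (median log2 0.54), where 1.51% of all genes passed in either direction. The median of the list was 0.65 in sh#1 and 0.08 in sh#2, with 12 and 8 of the 13 values above 0. Its part in the levels of the glycogen genes was not tested. The study reported smaller tumors with both hairpins, and broad necrosis in shCtrl but limited necrosis in knockdown tumors. Tumor size and necrosis thus go with the group and cannot be told apart from it here.

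Mouse tissue within the tumors carried its own copies of these genes at low counts. Summed over 15 tumors, there were 2.21 mouse counts per 100 human counts for PYGL, 3.92 for PPP1R3B and 18.3 for UGP2, the highest of the 9. In sh#1 tumor 1 UGP2 had 21 human and 22 mouse counts. All 9 mouse genes were below the low-count filter, so 0 were tested, and without the filter 0 of 9 passed at q under 0.1. Tumor 1 of sh#1 also had the highest summed mouse adipocyte markers (10727 CPM, where the other 14 tumors had at most 1125) and skeletal muscle markers (8845 CPM, others at most 1796). When the mouse-to-human count ratio of each tumor entered the fit, the log2 value of PPP1R3B in CDH11 KD was 0.70, and that of PYGL was 0.29.

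**Figure D5:**
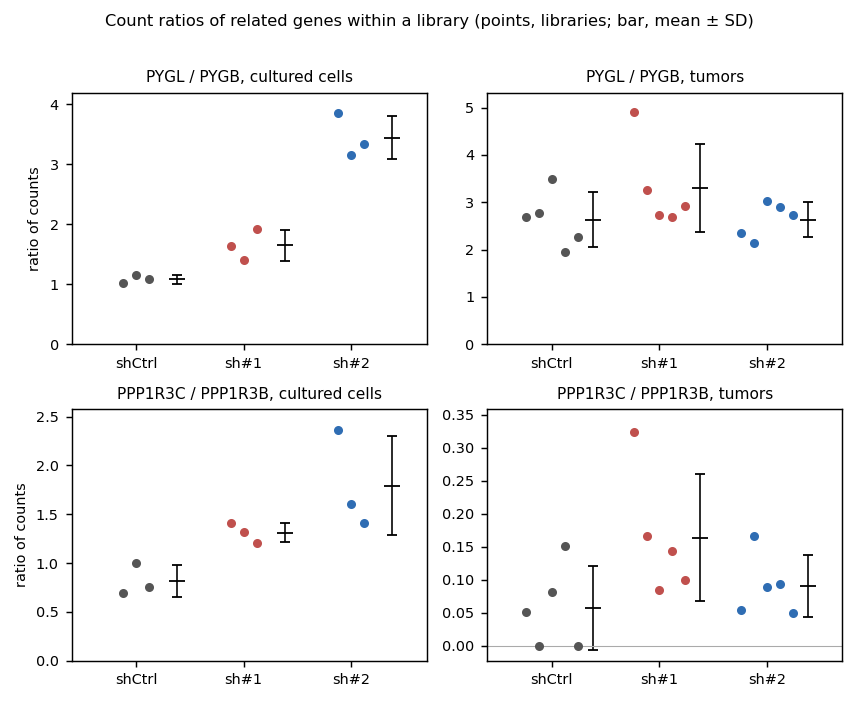
Ratio of counts within each library (y axis) of PYGL to PYGB and of PPP1R3C to PPP1R3B, in cultured cells and tumors by group (x axis). Points are libraries and the bar is the mean ± SD. In culture the mean of PYGL to PYGB is 1.09 in shCtrl, 1.65 in sh#1 and 3.44 in sh#2 without overlap, and in tumors the groups overlap at 2.63, 3.30 and 2.63.

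Genes were ranked by likeness to PPP1R3B, taking for each gene the lower of its Pearson correlations of log2 CPM over the 9 cultured and the 15 tumor libraries, among the 5994 genes that averaged 20 counts or more per library in each table. The libraries of a group share their treatment, so a high value can follow from the groups alone, and no p is given. The first 5 were ERRFI1, an inhibitor of receptor tyrosine kinases (0.934 in culture and 0.876 in tumors), the annexin ANXA5 (0.864 and 0.847), UAP1, which makes UDP-N-acetylglucosamine (0.971 and 0.847), the kinase STK17A (0.908 and 0.846) and SNAPC3, a subunit of the snRNA-activating complex (0.932 and 0.845). Of the 9 genes described, PPP1R3C was not ranked, since it was below the low-count filter in tumors. The ranks of the wider list of glycogen genes were not read. Among the described genes that were ranked, PYGL came nearest, at rank 49 (0.720 and 0.791), followed by GBE1 at rank 136 and GYS1 at rank 327. UGP2 (rank 452) and PGM1 (rank 461) followed. GYG1 was at rank 1949, with 0.887 in culture and -0.04 in tumors, and PYGB at rank 5540, with -0.80 in culture and 0.50 in tumors.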

How the data were processed

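RNA-seq was analysed from gene tables of 9 cultured UM-UC-3 libraries and 15 xenograft tumors. The values are raw read counts per gene as the authors deposited them. Per the study's methods, cultured reads were trimmed by the authors with CLC Genomics Workbench before RaNAseq alignment, tumor reads with Trim Galore before HISAT2 alignment, both on hg38. The counting program, its annotation, the use of strand and the way human and mouse reads were separated are not given in the sources used here, so misassigned mouse reads could add to human genes. In culture, 13 genes had no counts here and were dropped.

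Genes were filtered by filterByExpr (minimum count 10) and tested in edgeR 4.0.16 (R 4.3.3, limma 3.58.1) with TMM scaling and the robust quasi-likelihood test, two-sided. Both hairpins pooled were compared with shCtrl in a fit with 2 groups, and single hairpins and their difference in a fit with 3 groups. q is Benjamini-Hochberg adjusted over all genes tested (thresholds 0.05 in culture and 0.1 in tumors). The scripts were tested on simulated data. Alternatives were DESeq2 1.42.0, upper-quartile scaling, other filters, the replicate number as a block, the mouse-to-human ratio as covariate and each library left out. CPM intervals and floors cover counting error only, and totals of 2273182 to 2777019 (culture) and 414849 to 1248977 (tumors) limit genes of few counts. No pair of replicates agreed within sampling noise (lowest chi-square per degree of freedom 1.30). Promoter windows came from RefSeq and gene positions from GENCODE 44. The genes and lists were chosen with earlier results of these data known. The rule for named genes was the 9 genes, those of 34 other glycogen genes past the threshold in CDH11 KD with up to 6 others of most counts, and the 5 genes most like PPP1R3B. 1 gene of that list was counted with it but is not reported here by itself.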

Additional observations from a re-analysis of the deposited data

Results flagged for a closer look

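In 3 of 27 groups of 5 tumors examined (9 genes in 3 groups), a single tumor stood apart from the other 4 by Dixon's criterion, which chance meets in about 1 of 20 groups. PPP1R3B was 55.9 CPM in shCtrl tumor 3, where the other 4 shCtrl tumors had 29.3 to 36.8. In sh#1 tumor 1, the tumor with the fewest human counts, GBE1 was 130.4 CPM (56.5 to 75.7 in the other 4) and PYGL was 735 CPM (315 to 376 in the other 4).

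In cultured cells sh#1 and sh#2 differed by the edgeR test for 6 genes, with log2 values of sh#1 minus sh#2 of -0.64 for PPP1R3C, -1.62 for GYS1, -1.13 for GBE1, -1.03 for PYGL, -0.73 for PGM1 and -0.40 for UGP2. PYGB lay on opposite sides of shCtrl in the systems, with 0 of 6 cultured CDH11 KD libraries and 10 of 10 CDH11 KD tumors above the shCtrl mean, and this difference was not tested. The share of all genes with such a pattern was not read, and the tumor ranges overlapped.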

How the results depend on the processing

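The number of tested genes called in cultured CDH11 KD was 3, and it was 7 in the fit with 3 groups and 1 to 4 when each library was left out. For sh#1 (5 calls) it was 2 with DESeq2 and 2 to 5 with a library left out, and for sh#2 (8 calls) 5 with DESeq2. In tumors the count of 0 became 2 without the low-count filter in CDH11 KD and 2 in sh#1 (PPP1R3C and PYGL), and 1 with DESeq2 in sh#1 (PYGL), and stayed 0 with any tumor left out. The log2 value of PPP1R3B was 2.09 to 2.34 in culture and 0.74 to 1.02 in tumors with a library left out. With the mouse-to-human ratio as covariate, the tumor values of GYS1 and GBE1 in CDH11 KD turned to -0.13 and -0.057 and that of GYG1 in sh#1 to 0.019. With a library left out, values near 0 changed sign: in culture UGP2 in sh#1 (-0.19 to 0.18) and, between hairpins, PYGB (-0.044 to 0.095) and GYG1 (-0.059 to 0.13), and in tumors GYS1 in CDH11 KD (-0.12 to 0.30) and sh#2 (-0.35 to 0.069), GYG1 in sh#1 (-0.065 to 0.040), GBE1 in sh#2 (-0.14 to 0.075) and PYGB between hairpins (-0.050 to 0.077). None of these had passed the threshold, and the cause was not tested.

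Over all genes, 1719 calls in cultured CDH11 KD became 3291 with 3 groups and 963, 974 and 882 without shCtrl library 1, 2 or 3, and DESeq2 gave 1346 for 2209 calls in sh#1 and 1543 for 2431 between hairpins. For 139 calls in CDH11 KD tumors the counts were 63 with the mouse covariate, 276 without the filter, 227 with 3 groups, 48, 64 and 74 without shCtrl tumor 1, 2 or 4 and 399 without shCtrl tumor 5. For 136 calls in sh#1 tumors they were 69 to 287 with a tumor left out, 243 without the filter and 89 with at least 10 counts in every tumor, for 246 in sh#2 126 to 552 with a tumor left out, and for 109 between hairpins 44 or more with a tumor left out, 173 without the filter and 63 with at least 10 counts in every tumor. Equal replicate numbers did not pair the libraries (correlations of deviations -0.01 to 0.06 in culture and -0.10 to 0.13 in tumors). The replicate block gave 2 calls in cultured CDH11 KD, without PYGB (q = 0.0638), 6 in sh#1, 8 in sh#2 and 6 between hairpins, and 0 in tumors. Genes of few counts, such as PPP1R3C in tumors and CDH11, were limited by depth.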
